A study of Mus musculus with 2 samples.

Results

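The genes described here are 10 genes of the extracellular matrix that myeloid cells are known to make: the matrix proteins Fn1, Tgfbi, Vcan and Thbs1, the proteases Mmp9, Mmp12, Mmp14 and Adam8, and the protease inhibitors Timp1 and Timp2. They were chosen by name, and all 10 were found among the 31053 gene features of both libraries. Their level is the number of unique molecular identifiers (UMIs, each standing for 1 captured transcript) of a gene per 1000000 UMIs of the same cells (CPM), and it is given with the share of cells holding at least 1 UMI. Levels were read in each cell class and in each of 2 single-cell libraries. CPM values were compared mainly between cells for 1 gene. Where genes are set against each other by level, this describes their counts only.

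The first library came from wild-type mice (WT). The second came from mice labelled as a LncRNA17Rik knockout (KO), a germline CRISPR-Cas9 deletion that the study describes under the name lncLy6c, and that every cell of those animals carries. The knockout was made on a C57BL/6J background and the wild-type animals were C57BL/6. The study describes the cells as pooled from several male mice aged 8 weeks, so each genotype is 1 library and no spread between animals can be measured. Cells were taken from the colon lamina propria through a Percoll density gradient and are labelled cd11b+. No feature is named LncRNA17Rik or lncLy6c (0 of 31053), so the deletion was not checked at its own gene.

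With 1 library per genotype there is no test and no p-value: every KO to WT difference below compares these 2 libraries. The 95% intervals given are exact Poisson (levels), exact conditional binomial (ratios) and exact Clopper-Pearson (shares), and they cover counting error only. After filtering, 2597 WT and 2514 KO cells remained, with a median of 5073 and 6564.5 UMIs per cell. The gate did not hold throughout, since B cell-like, T cell-like, plasma cell-like, epithelial-like and fibroblast-like clusters were present. A UMI of Itgam, the gene of CD11b, was found in 40.0% of WT and 57.8% of KO cells. This share does not measure the gate. The same share was 60.2% and 56.8% in resident macrophage-like cells and 67.4% and 82.8% in inflammatory monocyte-like cells. Cell classes were rebuilt here by clustering without the 10 genes and were named from marker lists, so they may differ from the study's. In bulk sums over a library, fewer cells of a class and less RNA per cell cannot be told apart.

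Macrophages both build and take down the matrix between cells. Fibronectin, thrombospondin and the TGF-beta-induced protein are secreted proteins to which cells attach through integrins, and versican is a large proteoglycan of provisional matrix. The matrix metalloproteinases cut such proteins, and the tissue inhibitors of metalloproteinases (TIMPs) bind and block them. In the colon, monocytes enter from the blood and become resident macrophages.

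The cells that matter most here are 3 groups. Resident macrophage-like cells, named from C1qa, C1qb, C1qc, Mrc1, Cx3cr1, Cd163, Ms4a7, Mertk and Adgre1, numbered 314 in WT and 132 in KO. All 9 of these markers had UMIs in both libraries, and their summed level was 8545 CPM in WT and 9309 in KO. Inflammatory monocyte-like cells, named from Ly6c2, Ccr2, F10, Plac8, Chil3, Ms4a4c and Ifitm6, numbered 438 in WT and 361 in KO, and the 7 markers summed to 6449 and 6832 CPM.

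The monocyte-like class was not made of the same clusters in the 2 libraries. A cluster led by Ly6i, Cxcl9 and Sirpb1c held 395 of the WT and 65 of the KO cells. Another, led by Chil3, Ace and Lyz2, held 26 and 259. The remaining 17 WT and 37 KO cells of the class are not described on their own here. Most of the class was thus a different cluster in WT and in KO, and with 1 library each, cluster and library cannot be told apart. Values for the Ly6i and Chil3 clusters are given beside those of the class.

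Beside these stood a cluster led by Retnla, Ccl24 and Lpl with 17 WT and 149 KO cells. It expressed 5 of the 9 resident markers at a raised level and 2 of the monocyte markers. Its 10 leading genes held Pf4, which is on the platelet marker list, and none of the resident markers. By the naming rule it was therefore kept out of the resident class, and it is called by the genes that lead it. Pf4 was also among the 10 leading genes of the resident macrophage-like cluster. The other platelet markers summed to 0 CPM in WT and 0.616 in KO in the Retnla, Ccl24 and Lpl cluster. The resident markers of this cluster summed to 3242 CPM in WT and 2864 in KO, and its monocyte markers to 2365 and 1473 CPM.

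**Figure D1:**
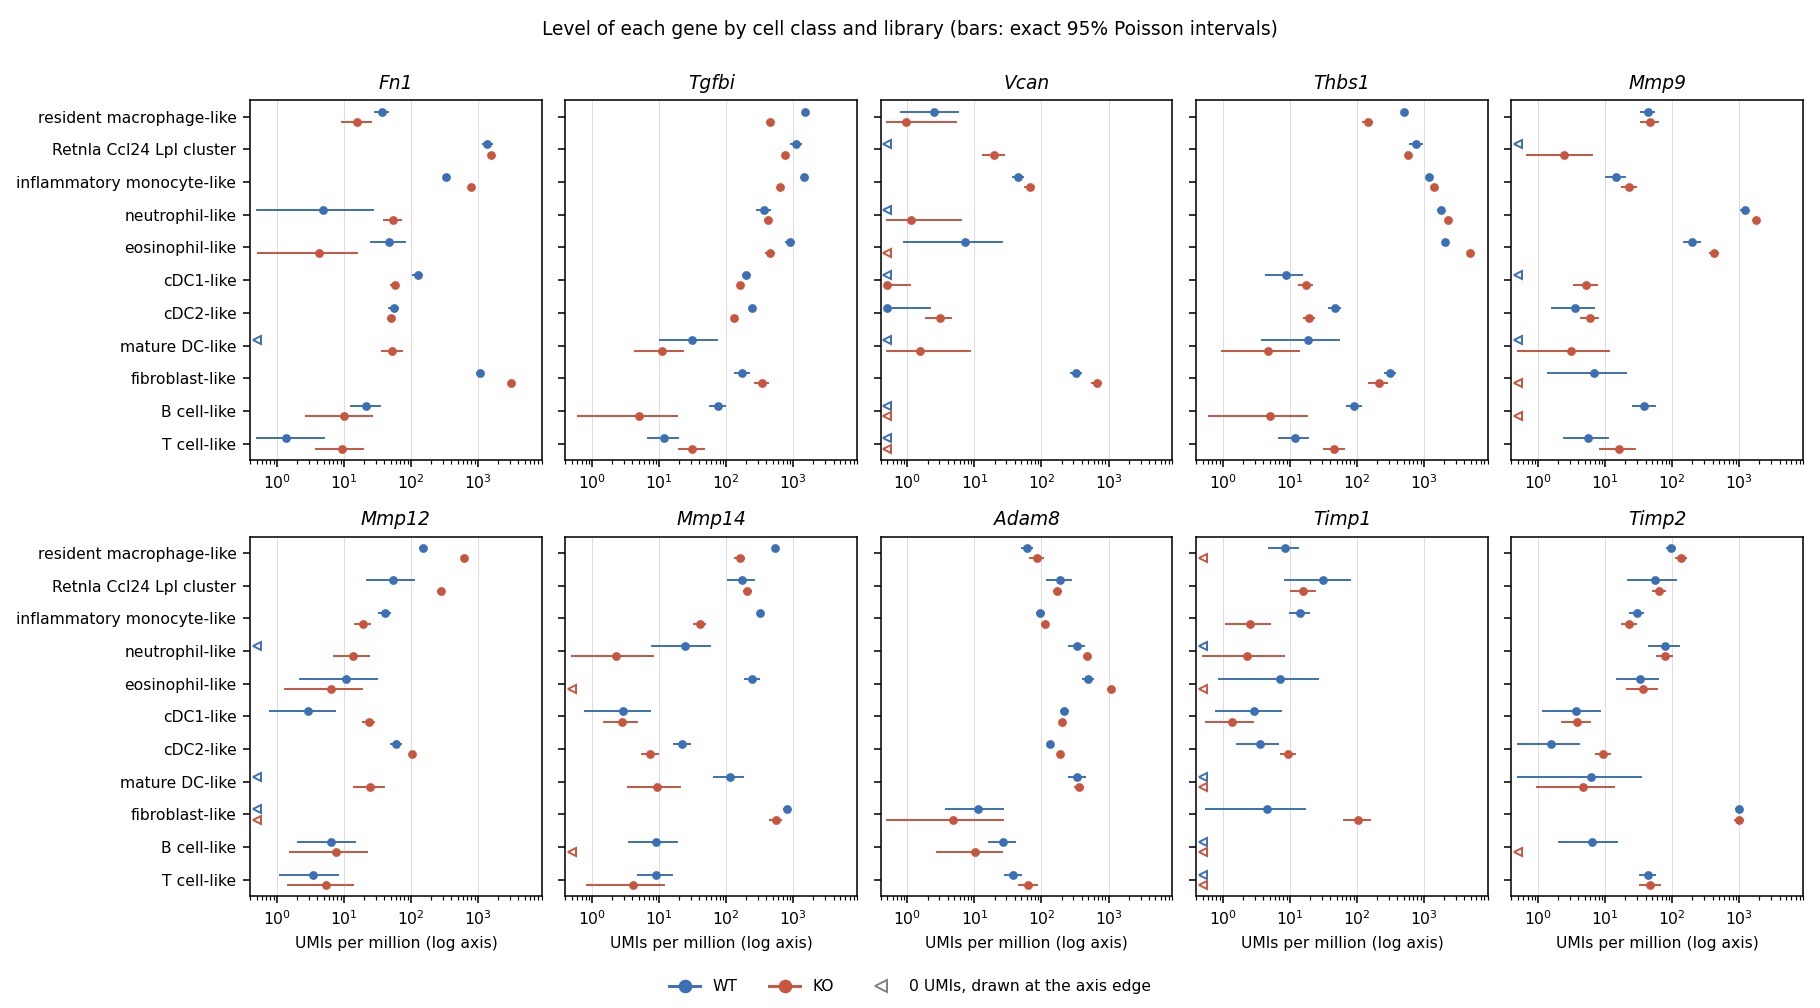
Level of each of the 10 genes in CPM (log axis) by cell class, with WT in blue, KO in red, bars for exact 95% Poisson intervals, and open triangles at the axis edge for 0 UMIs. Fn1 was at 1552 CPM in the Retnla, Ccl24 and Lpl cluster of KO and at 15.9 CPM in KO resident macrophage-like cells, and Mmp9 was at over 1000 CPM in neutrophil-like cells only.

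The promoters of the 3 genes whose levels differed most between the libraries in resident macrophage-like cells, and for which a window was at hand, are shown first. They are Tgfbi, Mmp14 and Mmp12, and each window covers 250 bases before and 50 from the annotated start on (RefSeq, GRCm38.p6, the build of the files, plus strand). A window was found for 7 of the 10 genes. The letters searched for on both strands were those of an AP-1 site (TGANTCA), a RUNX site (TGTGGT), an ETS site (AGGAAG) and a TATA box (TATAAA), none of which overlapped another in the windows shown. Tgfbi held an ETS match on the minus strand 248 bases before the start. Mmp14 held an ETS match 209 bases and, on the minus strand, a RUNX match 114 bases before the start. For Mmp12 the window with the start of 5 of 7 annotated transcripts is shown, with an AP-1 match 44 bases before that start and TATAAA from base 4 after it. Matches are in capitals, and a match on the minus strand appears as its reverse complement.
Tgfbi promoter, chr13:56609336-56609635: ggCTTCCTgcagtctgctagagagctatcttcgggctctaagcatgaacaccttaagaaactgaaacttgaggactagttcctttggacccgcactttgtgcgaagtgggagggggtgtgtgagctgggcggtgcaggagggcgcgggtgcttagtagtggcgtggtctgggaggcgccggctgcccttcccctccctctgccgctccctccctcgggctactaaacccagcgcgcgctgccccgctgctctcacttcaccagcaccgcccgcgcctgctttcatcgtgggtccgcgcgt
Mmp14 promoter, chr14:54431348-54431647: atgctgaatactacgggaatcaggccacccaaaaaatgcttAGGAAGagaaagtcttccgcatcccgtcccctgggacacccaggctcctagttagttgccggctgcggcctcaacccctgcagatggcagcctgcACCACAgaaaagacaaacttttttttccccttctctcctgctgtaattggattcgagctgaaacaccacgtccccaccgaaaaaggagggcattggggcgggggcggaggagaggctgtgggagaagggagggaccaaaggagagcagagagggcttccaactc
Mmp12 promoter, chr9:7347124-7347423: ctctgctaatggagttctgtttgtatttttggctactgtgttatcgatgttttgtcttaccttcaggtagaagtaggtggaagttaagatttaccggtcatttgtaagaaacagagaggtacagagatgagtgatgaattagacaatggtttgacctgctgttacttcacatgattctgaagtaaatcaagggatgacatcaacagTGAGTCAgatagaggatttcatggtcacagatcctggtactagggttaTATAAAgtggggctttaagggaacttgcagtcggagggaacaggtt

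Such matches are frequent. Of 32851 promoter windows of the same length, 7.81% held the AP-1 letters, 16.8% the RUNX letters, 35.4% the ETS letters and 13.6% TATAAA. Among the members' windows, the AP-1 and TATAAA matches occurred in Mmp12 only and the RUNX match in Mmp14 only. They describe letters in the window and are not binding sites measured here.

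Tgfbi was found at 130 CPM or more in every named macrophage, monocyte, granulocyte and conventional dendritic class of both libraries. It encodes TGF-beta-induced protein, a secreted matrix protein that binds collagens and integrins, and lies at chr13:56609523-56639562 on the plus strand of GRCm38 (ENSMUSG00000035493). In WT its highest levels were 1492 CPM in resident macrophage-like and 1447 CPM in monocyte-like cells, whose intervals overlapped, followed by 1096 CPM in the Retnla, Ccl24 and Lpl cluster (140 UMIs in 17 cells) and 903 CPM in eosinophil-like cells, whose intervals overlapped too. In KO the order was different, with 760 CPM in that cluster, 629 CPM in monocyte-like cells, 453 CPM in eosinophil-like cells and 450 CPM in resident macrophage-like cells, of which the last 2 had overlapping intervals.

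In resident macrophage-like cells Tgfbi was 3.31-fold lower in KO (log2 ratio -1.73, -1.87 to -1.59; 3019 and 480 UMIs). In monocyte-like cells the log2 ratio was -1.20 (-1.28 to -1.12; 3982 and 1948 UMIs). Lower levels in KO held for both classes in each alternative processing, from -1.84 to -1.15 for resident macrophage-like and from -1.27 to -0.59 for monocyte-like cells. By single cluster of the monocyte-like class, the Ly6i cluster gave 1502 CPM in WT and 725 in KO, and the Chil3 cluster gave 862 and 533 CPM.

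Outside the macrophages Tgfbi was also lower in KO in cDC2-like cells, type 2 conventional dendritic cells, at 246 CPM in WT and 130 in KO. The summed monocyte markers of these cDC2-like cells were 2190 CPM in WT and 898 in KO, 7 of 7 with UMIs in both, and the part of this in their Tgfbi, Thbs1 and Mmp14 values was not tested. In neutrophil-like cells it was 365 and 428 CPM, an interval of the log2 ratio of -0.13 to 0.61, and alternatives gave -1.25 to 0.50. To compare shares of cells at equal depth, each cell with at least 2000 UMIs was thinned to that number, and shallower cells were left out. Those left out were 66 WT and 21 KO resident macrophage-like, 32 and 31 monocyte-like, 29 and 27 neutrophil-like, and 202 and 383 eosinophil-like cells, so the thinned shares describe the deeper cells of a class. A Tgfbi UMI was then found in 83.5% of WT and 54.1% of KO resident macrophage-like cells, and in 84.0% and 57.6% of monocyte-like cells. Over all cells and all UMIs these shares were 88.9% and 77.3%, and 94.7% and 84.8%. B cell-like cells, which should lack the gene, gave 9.47% and 0%, and T cell-like cells 2.53% and 2.78%, with median depths before thinning of 2978 and 4394 UMIs in B cell-like, 4962 and 5844 in T cell-like, 5339.5 and 6716.5 in resident macrophage-like, and 6051.5 and 9275 in monocyte-like cells.

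Other marker genes moved with these values. The summed monocyte markers in resident macrophage-like cells were 1291 CPM in WT and 302 in KO, all 7 of 7 with UMIs in both, and the summed resident markers in monocyte-like cells were 1204 CPM in WT (9 of 9 with UMIs) and 387 in KO (8 of 9, Cd163 at 0). The part of this in the Tgfbi, Thbs1 and Mmp14 values was not tested. Fibroblast markers were low in both classes, at 22.7 CPM in WT and 41.3 in KO resident macrophage-like cells and at 18.9 and 4.84 CPM in monocyte-like cells, against 20458 and 29991 CPM in fibroblast-like cells.

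Thbs1, which encodes thrombospondin-1, a secreted glycoprotein that binds CD36 and CD47 and can activate latent TGF-beta, lies at chr2:118111876-118127133 on the plus strand (ENSMUSG00000040152). Among the named classes its highest levels were in granulocytes. Eosinophil-like cells held 2070 CPM in WT and 4953 in KO, neutrophil-like cells 1782 and 2307 CPM, and monocyte-like cells 1182 and 1408 CPM. The eosinophil-like and neutrophil-like levels of WT had overlapping intervals, whereas those of KO did not.

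In resident macrophage-like cells Thbs1 was 514 CPM in WT and 144 in KO (log2 ratio -1.83, -2.08 to -1.59; 1040 and 154 UMIs). The sign held in every alternative definition of the class, but the size did not, with a range of -2.48 to -0.30. In the monocyte-like class the log2 ratio was 0.25 (0.19 to 0.32), a direction that neither of the Ly6i and Chil3 clusters shared. In the Ly6i cluster Thbs1 was 1129 CPM in WT and 377 in KO (log2 ratio -1.58). In the Chil3 cluster it was 2167 and 1293 CPM, a log2 ratio of -0.74.

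After thinning, a Thbs1 UMI was found in 35.5% of WT and 18.9% of KO resident macrophage-like cells and in 58.4% and 54.2% of monocyte-like cells, against 5.92% and 1.19% of B cell-like cells. Without thinning the macrophage and monocyte shares were 41.4% and 25.0%, and 70.1% and 64.3%. In cDC2-like cells Thbs1 was low, at 46.8 CPM in WT and 19.2 in KO, and this order turned (log2 ratio 0.38) when 4000 in place of 2000 variable genes entered the clustering.

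Fn1 encodes fibronectin, which cells assemble into fibrils of the provisional matrix, and lies at chr1:71585520-71653200 on the minus strand (ENSMUSG00000026193). Fibroblast-like cells, its textbook source, held the highest level of the named classes, 1066 CPM in WT (80 cells) and 3119 in KO (21 cells). Among myeloid cells the level was highest in the Retnla, Ccl24 and Lpl cluster, at 1394 CPM in WT and 1552 in KO, an interval of the log2 ratio of -0.06 to 0.38. This cluster alone held 8.28% of the Fn1 UMIs of WT and 39.1% of those of KO.

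In monocyte-like cells Fn1 was 340 CPM in WT and 788 in KO, 2.31-fold higher in KO with a log2 ratio of 1.21 (1.10 to 1.32; 937 and 2442 UMIs). The sign held in each of the 10 alternatives, but 2 of them brought the value close to 0, namely 0.041 with 4000 variable genes and 0.071 at a Leiden resolution of 0.5. By cluster, the Ly6i cluster gave 313 and 795 CPM and the Chil3 cluster 942 and 834 CPM, so the last did not share the direction (log2 ratio -0.18, -0.41 to 0.07). An Fn1 UMI was found in 26.4% of WT and 49.4% of KO monocyte-like cells after thinning, and in 1.78% and 1.19% of B cell-like cells. Unthinned, the monocyte-like shares were 40.6% and 66.8%.

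In resident macrophage-like cells Fn1 was low, at 37.1 CPM in WT (75 UMIs) and 15.9 in KO (17 UMIs). The log2 ratio was -1.22 (-2.07 to -0.44), but it had no settled direction, since it became 3.0 when the Retnla, Ccl24 and Lpl cluster was counted as resident and was between 2.20 and 3.89 under 4 other alternatives. In neutrophil-like cells Fn1 had 1 UMI in WT and 47 in KO, which were 4.87 and 53.7 CPM. The KO UMIs lay in 6 of 266 cells, 42 of them in 1 cell, and the log2 ratio of 3.46 (0.91 to 8.80) became -0.23 when classes were taken from the highest marker score.

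Vcan encodes versican, a large proteoglycan that binds hyaluronan, and lies at chr13:89655312-89742509 on the minus strand (ENSMUSG00000021614). Fibroblast-like cells held 331 CPM in WT and 663 in KO, which was 51.2% and 34.6% of all Vcan UMIs. The only named myeloid class with a clear level was the monocyte-like one, at 45.1 CPM in WT and 66.5 in KO (124 and 206 UMIs), with a log2 ratio of 0.56 (0.23 to 0.89) that turned to -1.06 at a resolution of 0.5 and to -0.49 with 4000 variable genes. The Chil3 cluster held 142 CPM in WT and 47.1 in KO, and the Ly6i cluster 36.0 and 40.4 CPM. Resident macrophage-like cells had 5 UMIs in WT and 1 in KO. After thinning, 7.39% of WT and 8.18% of KO monocyte-like cells had a Vcan UMI, and no B cell-like or T cell-like cell did. Unthinned, the monocyte-like shares were 12.8% and 19.4%.

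**Figure D2:**
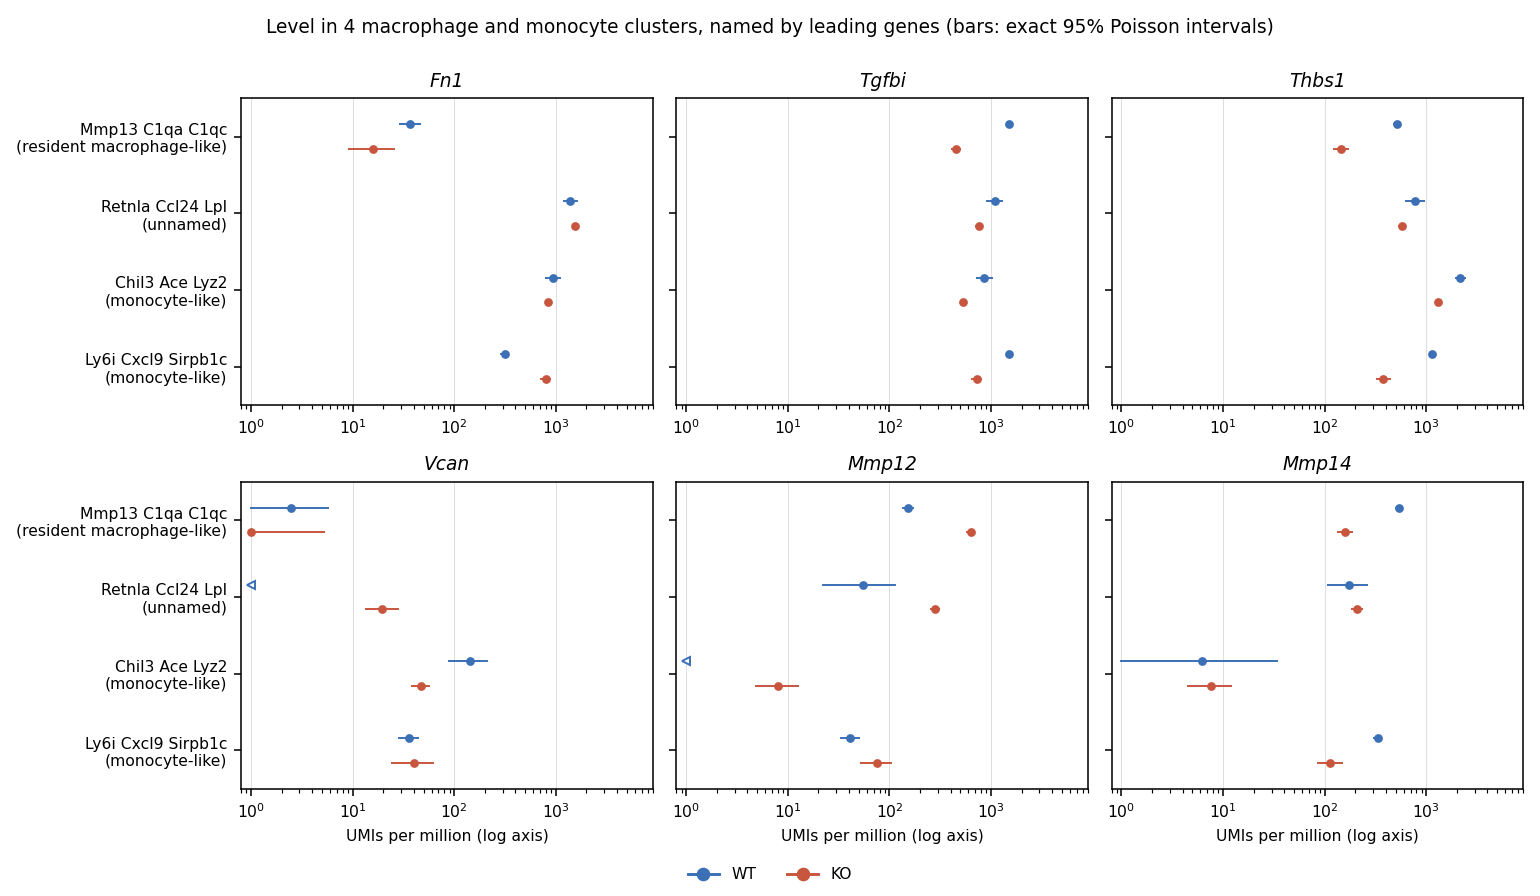
Level of 6 genes in CPM (log axis) in 4 macrophage and monocyte clusters, named by their leading genes, with WT in blue, KO in red, bars for exact 95% Poisson intervals and open triangles for 0 UMIs. Thbs1 in KO was at 1293 CPM in the Chil3 cluster and at 377 CPM in the Ly6i cluster, and Mmp14 was under 10 CPM in the Chil3 cluster of both libraries.

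Of the proteases, Mmp14 and Mmp12 were those with macrophage levels, Mmp9 was a neutrophil transcript and Adam8 was spread over granulocytes and dendritic cells. Mmp14 encodes a membrane-bound metalloproteinase that cuts collagen at the cell surface and activates pro-MMP2 together with TIMP2, and lies at chr14:54431612-54445364 on the plus strand (ENSMUSG00000000957). Its promoter window is shown above. Fibroblast-like cells held 820 CPM in WT and 546 in KO. Resident macrophage-like cells held 538 CPM in WT and 159 in KO, and monocyte-like cells 319 and 40.3 CPM.

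The log2 ratio of Mmp14 was -1.75 (-2.0 to -1.52; 1089 and 170 UMIs) in resident macrophage-like cells and -2.98 (-3.26 to -2.71; 877 and 125 UMIs) in monocyte-like cells. It stayed below 0 in every alternative definition of the whole class, from -1.90 to -1.21 and from -3.60 to -1.51. The clusters of the monocyte-like class differed in Mmp14. The Chil3 cluster, which was most of the KO class, had almost no Mmp14 in either library (6.16 and 7.65 CPM; 1 and 18 UMIs), whereas the Ly6i cluster had 332 CPM in WT and 113 in KO. Compared within the Ly6i cluster, the log2 ratio was -1.55 (-1.97 to -1.16).

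The Retnla, Ccl24 and Lpl cluster did not share this difference, at 172 CPM in WT (22 UMIs) and 208 in KO (338 UMIs), an interval of -0.35 to 0.97. It held 0.811% of the Mmp14 UMIs of WT and 40.3% of those of KO. In eosinophil-like cells Mmp14 was 247 CPM in WT (68 UMIs) and had 0 UMIs in 409 KO cells, a count that allows up to 0.733% of cells with a UMI, and the log2 ratio had an upper 95% limit of -4.91. Resident markers in these eosinophil-like cells summed to 740 CPM in WT (8 of 9 with UMIs, Cd163 at 0) and 626 in KO (7 of 9, Cd163 and Mertk at 0). Their monocyte markers, 7 of 7 with UMIs in both, summed to 1026 and 583 CPM. Markers of cDC1 summed to 210 and 73.7 CPM, of plasma cells to 660 and 119 CPM and of epithelium to 272 and 26.0 CPM. Eosinophil markers were higher in KO, at 1120 and 1723 CPM. The part of these in the Mmp14 value was not tested. After thinning, 56.0% of WT and 28.8% of KO resident macrophage-like cells and 35.2% and 5.15% of monocyte-like cells had an Mmp14 UMI, against 2.96% and 0% of B cell-like cells. Unthinned, the shares were 70.4% and 48.5%, and 49.1% and 12.2%.

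Mmp12, the macrophage metalloelastase, cuts elastin and lies at chr9:7344381-7369499 on the plus strand (ENSMUSG00000049723). It was the 1 member at least 2-fold higher in KO resident macrophage-like cells, at 153 CPM in WT and 632 in KO (log2 ratio 2.05, 1.85 to 2.24; 310 and 674 UMIs), and every alternative placed it above 0, from 1.29 to 2.07. The UMIs were concentrated in few cells. The 5 cells with most UMIs held 42.3% of the class's Mmp12 UMIs in WT and 52.5% in KO, and the highest single cell had 43 and 117. Without those 5 cells of each library the log2 ratio was 1.82. The share of cells with a UMI after thinning was 12.1% in WT and 27.9% in KO (unthinned 20.1% and 30.3%), against 0.592% and 1.19% of B cell-like cells.

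The level order of Mmp12 was the same in both libraries at its top among named classes, resident macrophage-like above cDC2-like cells, which had 60.6 CPM in WT (92 of 154 UMIs in 1 cell) and 103 in KO. In the Retnla, Ccl24 and Lpl cluster it was 54.8 CPM in WT (7 UMIs) and 283 in KO (459 UMIs), a log2 ratio of 2.37 (1.31 to 3.69). In monocyte-like cells Mmp12 was lower in KO, 41.1 and 19.4 CPM, with a log2 ratio of -1.08 (-1.56 to -0.62). That direction did not hold in the Ly6i cluster alone (41.3 and 74.7 CPM, log2 ratio 0.85) or when the members entered the clustering (1.20). Nor was it seen in the Chil3 cluster, with 0 UMIs in WT and 19 in KO (0 and 8.07 CPM). On these few UMIs the lower 95% limit of the log2 ratio was -1.6.

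Mmp9, gelatinase B, a secreted protease stored in neutrophil granules, lies at chr2:164940780-164955850 on the plus strand (ENSMUSG00000017737). Neutrophil-like cells held 1212 CPM in WT (80 cells) and 1756 in KO (266 cells), and these were 49.3% and 79.2% of all Mmp9 UMIs. The log2 ratio was 0.53 (0.34 to 0.73; 249 and 1538 UMIs). Eosinophil-like cells came next, at 199 and 425 CPM, and the other classes held less than 50 CPM in both libraries. The summed neutrophil markers in neutrophil-like cells were 44585 CPM in WT and 78081 in KO, all 7 of 7 with UMIs in both, and the part of that in the Mmp9 value was not tested.

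A Mmp9 UMI was found in 84.3% of WT and 92.1% of KO neutrophil-like cells after thinning (unthinned 78.8% and 94.7%), at median depths of 2272 and 3015 UMIs, and in 3.55% and 0% of B cell-like cells. The WT B cell-like cells also carried neutrophil markers, summed to 955 CPM against 20.3 in KO. The Mmp9 level of resident macrophage-like cells was 43.0 and 46.0 CPM, with an interval of the log2 ratio of -0.44 to 0.62, and it had no settled direction, since only 3 of 10 alternatives kept its sign (-1.36 to 1.05). In monocyte-like cells it was 14.5 and 22.6 CPM. There, all 40 WT UMIs lay in the Ly6i cluster and 69 of the 70 KO UMIs in the Chil3 cluster.

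Adam8 encodes a membrane-anchored metalloproteinase of leukocytes that cuts adhesion molecules, and lies at chr7:139978932-139992562 on the minus strand (ENSMUSG00000025473). Eosinophil-like cells were highest, at 497 CPM in WT and 1090 in KO, and neutrophil-like cells held 336 and 471 CPM, with intervals that overlapped between these classes in WT. Dendritic cells held 344 and 360 CPM in mature DC-like cells (19 and 42 cells), 219 and 202 CPM in cDC1-like and 135 and 190 CPM in cDC2-like cells. Monocyte-like cells held 95.9 and 114 CPM and resident macrophage-like cells 60.8 and 84.4 CPM. Within the monocyte-like class, the Ly6i cluster held 95.5 and 105 CPM and the Chil3 cluster 73.9 and 79.9 CPM.

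Higher Adam8 in KO was thus seen in eosinophil-like cells (log2 ratio 1.13, 0.86 to 1.42), neutrophil-like cells (0.49, 0.12 to 0.88) and cDC2-like cells (0.49, 0.32 to 0.67). The same direction was found in monocyte-like cells (0.25, 0.01 to 0.48) and in T cell-like cells (0.74, 0.14 to 1.32). Neutrophil markers in neutrophil-like cells also differed, as given above, and the part of that in the Adam8 value was not tested. In resident macrophage-like cells the log2 ratio of 0.47 turned to -0.12 under a stricter cell filter and to -0.01 without the 5 cells with most UMIs. Thinned shares were 33.3% and 54.4% in neutrophil-like cells (unthinned 43.8% and 66.9%) against 8.02% and 11.1% in T cell-like cells. The level in T cell-like cells was 38.1 and 63.5 CPM.

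Both inhibitors were low in myeloid cells. Timp2, an inhibitor that also takes part in pro-MMP2 activation, lies at chr11:118301069-118355740 on the minus strand (ENSMUSG00000017466). It was highest in fibroblast-like cells at 992 CPM in WT and 983 in KO, which held 51.2% and 27.9% of its UMIs. Resident macrophage-like cells came next with 96.8 and 135 CPM (196 and 144 UMIs), then neutrophil-like cells with 77.9 and 77.6 CPM. Monocyte-like cells held 29.8 and 22.9 CPM, with 31.2 and 16.1 CPM in the Ly6i cluster and 18.5 and 25.5 CPM in the Chil3 cluster. The log2 ratio in resident macrophage-like cells, 0.48 (0.16 to 0.80), turned sign in 4 alternatives, between -0.31 and -0.034. The thinned share in these cells was 16.1% in WT and 22.5% in KO (unthinned 32.8% and 50%), against 6.75% and 8.33% of T cell-like cells.

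Timp1, a secreted inhibitor with a wide metalloproteinase range, lies at chrX:20870166-20874735 on the plus strand (ENSMUSG00000001131) and had 80 UMIs in the whole WT library and 136 in KO. Monocyte-like cells held 14.2 CPM in WT (39 UMIs) and 2.58 in KO (8 UMIs), a log2 ratio of -2.46 (-3.77 to -1.34) that ranged from -4.21 to -1.21 over the alternatives. Of the 39 WT UMIs, 23 came from the Ly6i cluster, where KO had 2 UMIs and the log2 ratio was -1.21 with an interval that held 0 (-4.34 to 0.81), and none came from the Chil3 cluster in either library. The other 16 WT UMIs and 6 of the 8 KO UMIs lay in the 17 WT and 37 KO cells outside both clusters, so the class value rests in large part on few cells. Resident macrophage-like cells had 17 UMIs in WT and 0 in 132 KO cells, a count that allows up to 2.27% of cells with a UMI. Against this, cDC2-like cells were higher in KO, at 3.54 and 9.34 CPM (9 and 71 UMIs), and fibroblast-like cells had 2 UMIs in WT and 22 in KO. The Retnla, Ccl24 and Lpl cluster held 31.3 CPM in WT (4 UMIs) and 16.0 in KO (26 UMIs). These levels were above those of the monocyte-like class, and the interval of the log2 ratio held 0 (-2.50 to 1.01).

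**Figure D3:**
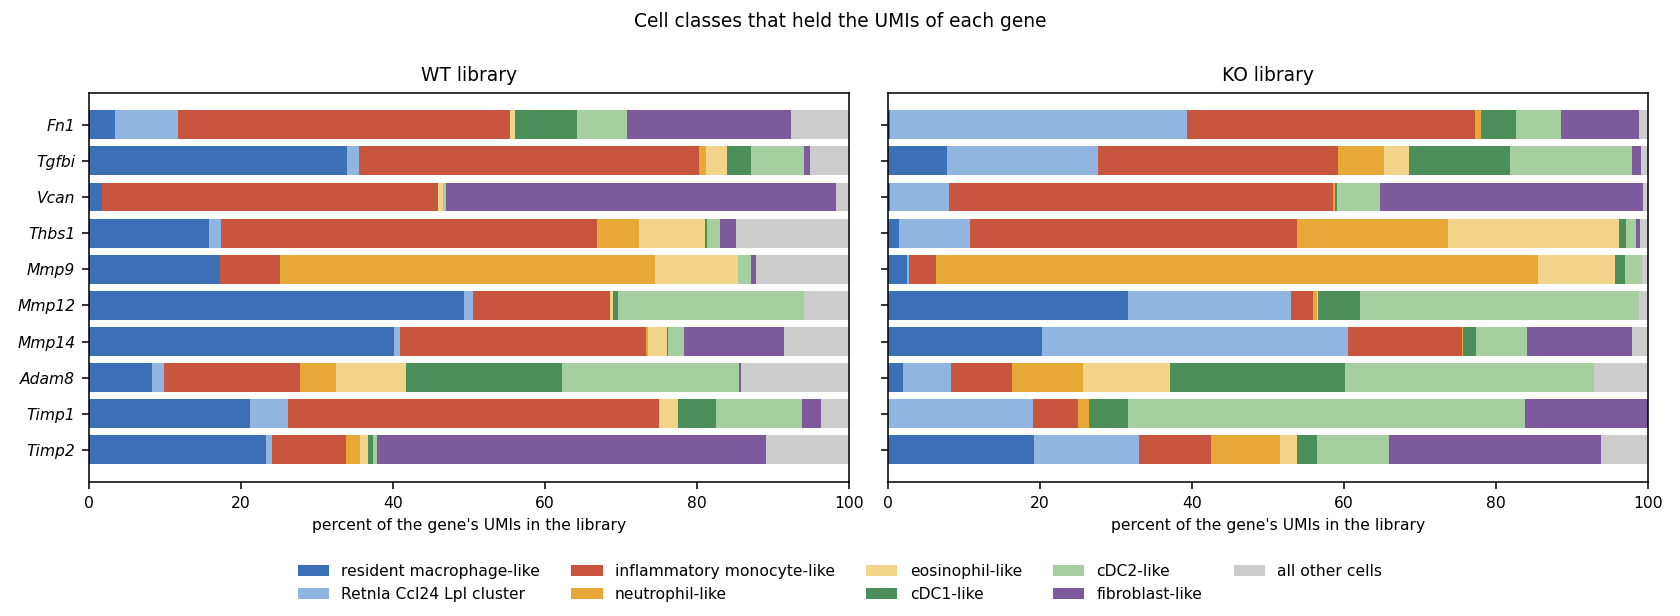
Percent of each gene's UMIs that came from each cell class, in the WT library (left) and the KO library (right), with every bar summing to 100%. The Retnla, Ccl24 and Lpl cluster (light blue) held 0.811% of Mmp14 UMIs in WT and 40.3% in KO, and neutrophil-like cells (orange) held 49.3% and 79.2% of Mmp9 UMIs.

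In resident macrophage-like cells the members with at least 20 UMIs split evenly, with 4 log2 ratios below 0 and 4 above. Of these 8 members, Tgfbi, Thbs1, Mmp14 and Fn1 were at least 2-fold lower in KO, where 10.6% of the 8170 genes tested were, and Mmp12 was at least 2-fold higher, where 3.94% of genes were. The median log2 ratio over the 8 members was -0.56, and over all genes tested -0.23. The Fn1 value counted here changed direction with the class definition, as given above. Of the 4 values above 0, that of Mmp9 had an interval that held 0, and those of Timp2 and Adam8 changed sign in some alternatives. Only that of Mmp12 stayed above 0 in every alternative. Dissociation stress genes, the list of 17 transcripts known to be induced by tissue digestion, summed to 15110 CPM in WT and 18547 in KO in this class, where all 17 had enough UMIs to be compared, and the part of that in the members' values was not tested.

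In monocyte-like cells all 10 members could be compared. Fn1 was at least 2-fold higher in KO, where 3.39% of 8871 genes were, and Tgfbi, Mmp14, Mmp12 and Timp1 were at least 2-fold lower, where 9.28% of genes were. The median over all genes in this class was -0.17. The stress list summed to 14162 CPM in WT and 11993 in KO, and neutrophil markers, 7 of 7 with UMIs in both, to 540 and 1019 CPM. The part of either in the members' values was not tested.

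The other classes differed in how many members could be compared. In eosinophil-like cells Thbs1, Adam8 and Mmp9 were at least 2-fold higher in KO of 6 members compared (8.54% of genes), and Mmp14 was lower (9.23% of genes). That class rests on 3 of 6 eosinophil markers with a raised level and on shallow cells, with medians of 798 UMIs in WT and 971 in KO. Its neutrophil markers summed to 7208 and 7151 CPM and its eosinophil markers to 1120 and 1723 CPM, with Epx, an eosinophil granule gene, at 0 in both libraries. Whether other cells were among them was not tested.

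In neutrophil-like cells Fn1, on the 1 and 47 UMIs given above (42 of the latter in 1 cell), was at least 2-fold higher in KO of 6 members compared (6.99% of genes), and 0 were lower (13.7% of genes). In cDC2-like cells Vcan, Timp1 and Timp2 were at least 2-fold higher in KO of 10 members compared (4.77% of genes), all on low counts of 1 and 23, 9 and 71, and 4 and 71 UMIs. Thbs1 and Mmp14 were at least 2-fold lower there (9.43% of genes), and both turned with 4000 variable genes. Monocyte markers, as given above, were also lower in KO cDC2-like cells.

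**Figure D4:**
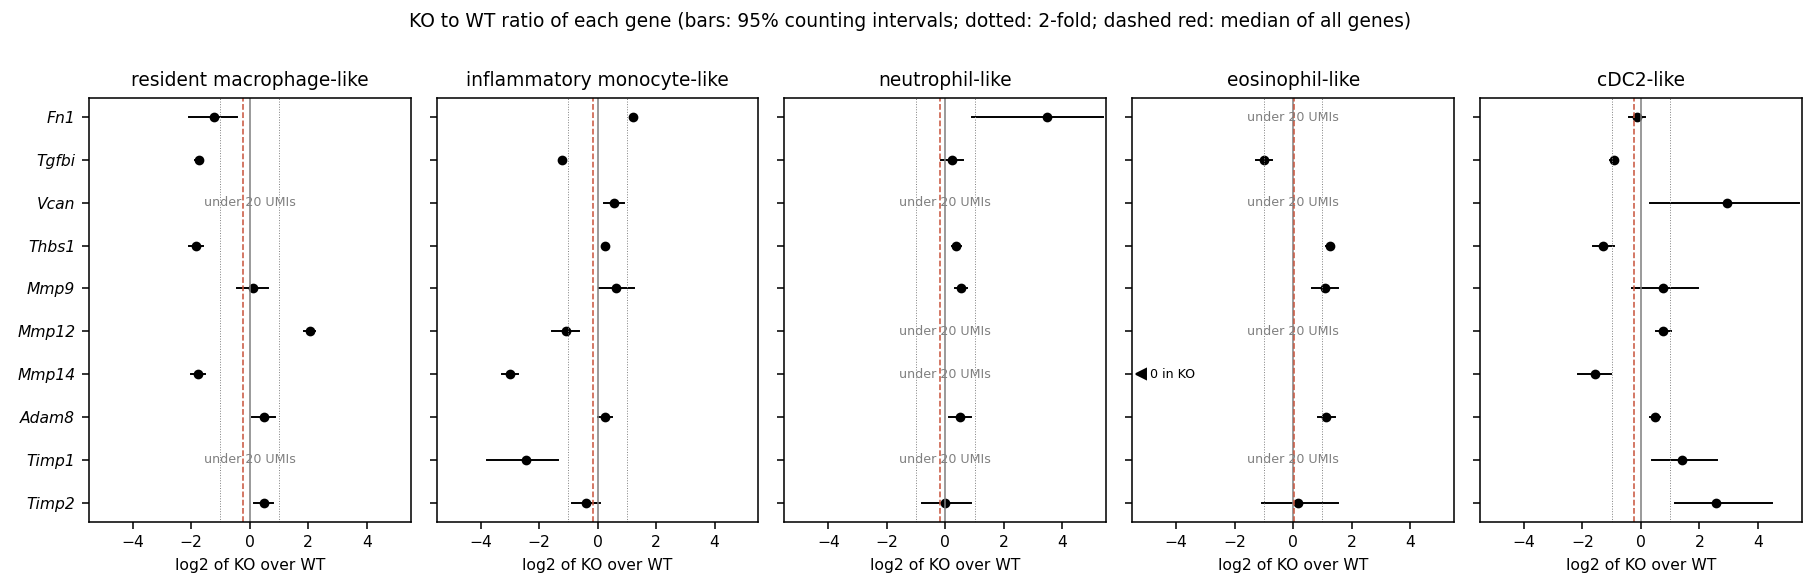
KO to WT log2 ratio of each gene in 5 cell classes, with bars for exact 95% counting intervals (those of Fn1 in neutrophil-like and Vcan in cDC2-like cells run past the axis), dotted lines at 2-fold and a dashed red line at the median of all genes. Tgfbi and Mmp14 lie left of the 2-fold line in resident macrophage-like and monocyte-like cells, and Mmp12 lies on opposite sides in these classes.

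**Figure D5:**
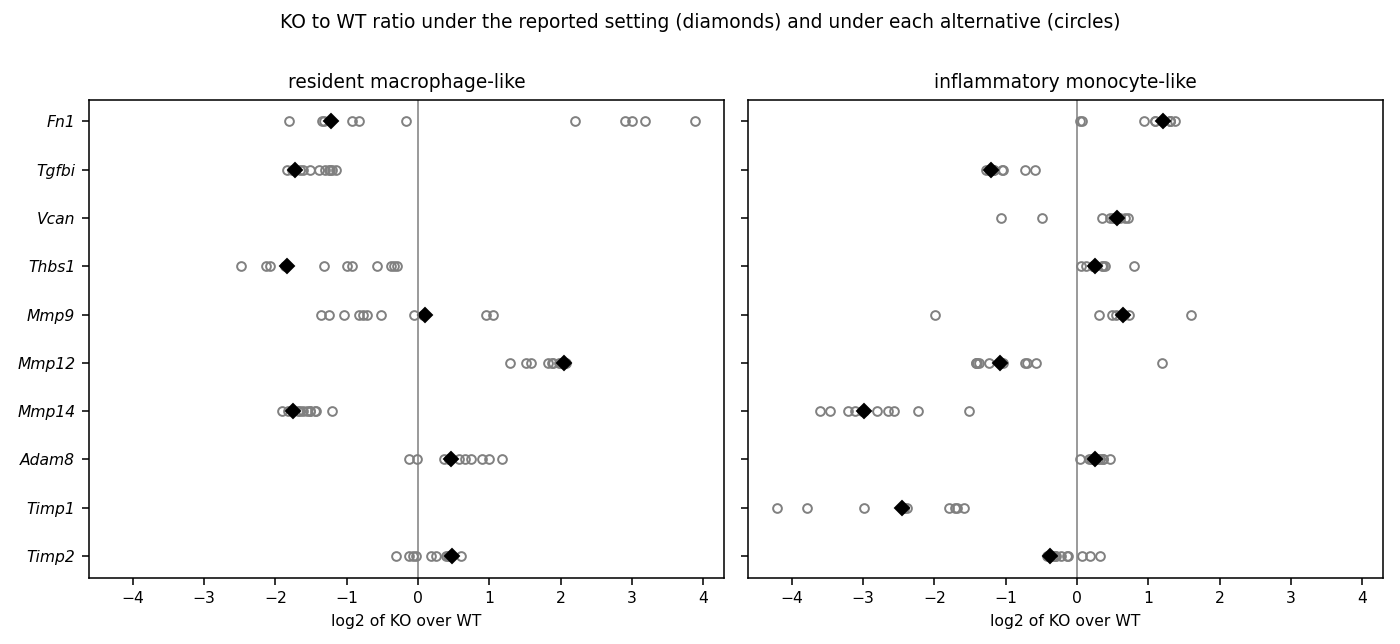
KO to WT log2 ratio of each gene in resident macrophage-like (left) and inflammatory monocyte-like cells (right), with a diamond for the reported value and a circle for each alternative processing. The circles of Tgfbi and Mmp14 stay below 0 in both panels and those of resident Mmp12 above 0, while those of resident Fn1 lie between -1.81 and 3.89.

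Whole-library levels sum over cell classes of unequal size. Over all cells Fn1 was 113 CPM in WT and 289 in KO, Mmp9 26.6 and 87.0 CPM, Mmp12 33.1 and 95.7 CPM and Adam8 77.8 and 198 CPM. Mmp14 was lower in KO at 143 and 37.6 CPM, and Tgfbi at 468 and 277 CPM. Neutrophil-like cells were 80 in WT and 266 in KO and cDC2-like cells 245 and 507, and in these sums cell number and RNA per cell cannot be told apart.

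Members that were seen in the same cells are described by how often 1 gene had a UMI in cells with and without another, after thinning to 2000 UMIs. In WT resident macrophage-like cells Mmp14 was found in 58.5% of cells with Tgfbi and in 43.9% of those without, and Thbs1 in 39.1% and 17.1%. In KO the Thbs1 shares were 25.0% and 11.8%, and the Mmp14 shares 30% and 27.5%. The Thbs1 shares rest on 81 of 207 cells with Tgfbi and 7 of 41 without in WT, and on 15 of 60 and 6 of 51 in KO. They were higher with Tgfbi in these counts, a difference that was not tested, whereas the Mmp14 shares of KO were close. In monocyte-like cells the Thbs1 shares with and without Tgfbi were 57.8% and 61.5% in WT and 55.8% and 52.1% in KO.

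In WT monocyte-like cells Vcan was found in 18.7% of the cells with Fn1 and in 3.34% of those without, while Mmp14 was found in 17.8% of cells with Fn1 and in 41.5% of those without. In KO the Vcan shares were 12.3% and 4.19%. The Mmp14 shares of KO were 5.52% and 4.79% (9 of 163 and 8 of 167 cells), so a lower share with Fn1 was not seen there. Most KO cells of this class were the Chil3 cluster, which had almost no Mmp14 in either library. The difference between the libraries was not tested. In KO monocyte-like cells Fn1 was found in 74.1% of cells with Vcan and in 47.2% of those without. In the Retnla, Ccl24 and Lpl cluster of KO, Adam8 was found in 35.3% of cells with Fn1 and in 11.4% of those without. Cells of 1 library share their source and are not replicates, so no test was made of these shares.

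The genes most like each member were found by Pearson's r of log2(CPM + 10) over 20 profiles, 10 cell classes in each of 2 libraries, among 9485 genes. The 10 classes were those with at least 20 cells in each library. They took in fibroblast-like, B cell-like, T cell-like and NK cell-like cells and left out the Retnla, Ccl24 and Lpl cluster, so r is not particular to myeloid cells. Fn1 and Vcan were both highest in fibroblast-like cells among the named classes, and the part of this in their r values was not tested. The profiles share library and depth, so r is a description only. Fn1 was most like Flt1 (0.93), Hpse (0.93) and Spsb2 (0.92), and Vcan most like Flt1 (0.96), Rras (0.93) and Hpse (0.93), so both shared 2 of their 3 nearest genes. Tgfbi was nearest Ralb (0.95), Sirpa (0.94) and Dirc2 (0.91), and Thbs1 nearest Cebpb (0.95), Tgm2 (0.94) and Pla2g7 (0.93).

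Among the proteases, Mmp14 was nearest Itgb5, Hebp1 and Axl (0.93 each), Mmp9 nearest P2ry2 (0.95), Hdc (0.95) and Acod1 (0.94), and Adam8 nearest Cd80 (0.94), Rasgrp4 (0.94) and Taldo1 (0.93). Mmp12 had lower values, with Gpr85 (0.89), Tank (0.89) and Gm15880 (0.88). Timp2 was nearest March8 (0.91), Tnfsf13b (0.90) and Rnase4 (0.89), and Timp1, with the fewest UMIs of the members, had the lowest top value (Hacd1, 0.86). Between members, the highest values were 0.87 for Fn1 and Vcan and 0.78 for Mmp9 and Thbs1.

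Other genes of the matrix were read in the resident macrophage-like and monocyte-like cells together, where the median log2 ratio over all genes was -0.20, 3.57% of 9976 genes were at least 2-fold higher in KO and 7.96% at least 2-fold lower. This pool held 314 resident macrophage-like and 438 monocyte-like cells in WT against 132 and 361 in KO, and most of its monocyte-like cells were a different cluster in each library, so composition and level cannot be told apart in its values. Thbs1, for one, had a log2 ratio of 0.27 in the pool, and was below 0 in the resident class and in both the Ly6i and Chil3 clusters. Of 26 other matrix proteins 14 could be compared, of which 2 (Spp1, Col27a1) were at least 2-fold higher and 3 (Lgals3bp, Col4a2, Spon1) at least 2-fold lower in KO. Srgn, the proteoglycan serglycin of secretory granules, had the highest CPM of them, at 1982 in WT and 3249 in KO. Spon1, an F-spondin gene, was 51.9 and 4.32 CPM (248 and 18 UMIs).

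Of 21 other metalloproteinases 11 could be compared, with Mmp13, a collagenase, higher in KO at 101 and 287 CPM and Adam19 lower at 38.3 and 18.2 CPM. The pooled Mmp13 value did not hold by class. Mmp13 was at least 2-fold higher in KO in resident macrophage-like cells and at least 2-fold lower in monocyte-like cells. Of 8 other protease inhibitors 4 could be compared, and Slpi, the secretory leukocyte protease inhibitor, was higher in KO at 95.7 and 815 CPM (log2 ratio 3.09). By class, Slpi was at least 2-fold higher in monocyte-like cells, whereas 0 of 3 inhibitors compared were in resident macrophage-like cells. Slpi was also at least 2-fold higher in KO in cDC1-like, cDC2-like, eosinophil-like, neutrophil-like, T cell-like and other unnamed cells. In B cell-like cells it was at least 2-fold lower. The 3 of 4 plasminogen activation genes that could be compared were all within 2-fold, including Plaur, the urokinase receptor, at 672 and 895 CPM.

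Of 8 genes for crosslinking and hyaluronan 5 could be compared, and 1 (Hyal2) was at least 2-fold lower. Of 12 matrix receptors 10 could be compared, with Cd36, the thrombospondin receptor, higher in KO at 39.8 and 124 CPM, Sdc3, a syndecan, lower at 253 and 126 CPM, and Cd44, the hyaluronan receptor, at 1113 and 1281 CPM. Of the 10 members in the same pool, Fn1 was at least 2-fold higher (3.57% of genes) and Tgfbi, Mmp14 and Timp1 at least 2-fold lower (7.96% of genes). These lists were chosen with earlier results of these data in view, and their counts are given as descriptions.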

How the data were processed

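Single-cell 3′ libraries (10x, V3 chemistry) of 1 WT and 1 KO pool were analysed. The authors deposited raw UMI counts per gene and barcode, made with Cell Ranger 3.0.2 per the file headers; the submitters' processing notes name mm10 and Seurat 4. The matrices held 3185 WT and 3020 KO barcodes, both below the cell numbers the study states and WT by much more, so the WT matrix may hold only part of the study's WT cells, with 1 barcode in common and 0 after filtering. Cells with under 200 or over 6000 genes or over 15% mitochondrial UMIs were left out as in the study (18.5% of WT and 16.8% of KO barcodes), leaving 18994564 and 22331342 UMIs.

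Counts were log-normalised to 10000, and 2000 variable genes without the 10 members entered 30 principal components, a 15-neighbour graph and Leiden clustering at resolution 1 (scanpy 1.11.5, leidenalg 0.10.2), which gave 22 clusters, 3 of them unnamed. A cluster was named from the marker list with the largest share raised 2-fold, needing 3 or more markers in at least 10% of its cells. Scrublet called 1 WT and 9 KO cells, under 0.5% of cells, so its calls were not used; removing the top 3% of scores was an alternative. Ratios needed 20 UMIs over both libraries and intervals came from scipy 1.17.1. Named genes were the members, the 3 genes most like each, and, per list, the 3 with the highest level and those with the highest and lowest ratio at 50 or more UMIs, with genes past 2-fold named where few. The study's DESC clustering was not used here, and the smallest monocyte-like cluster is not reported on its own. The procedure was tested on simulated counts. Members and lists were chosen with earlier results of these data known.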

Additional observations from a re-analysis of the deposited data

Results flagged for a closer look

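For 3 members the KO to WT ratio went opposite ways in resident macrophage-like and monocyte-like cells, with both 95% counting intervals excluding 0. The log2 ratio of resident macrophage-like cells minus that of monocyte-like cells was -2.43 for Fn1, -2.08 for Thbs1 and 3.13 for Mmp12. These differences were not tested, since each rests on 1 library per genotype. The direction of Fn1 in both classes, and those of Thbs1 and Mmp12 in monocyte-like cells, changed with the clusters taken as the class, and 2 other clusterings brought the Fn1 ratio of monocyte-like cells to 0.041 and 0.071.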

How the results depend on the processing

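Of the 18 member ratios of resident macrophage-like and monocyte-like cells, 10 kept their sign in every alternative other than those chosen after seeing the data. Of 461 alternative values of 39 member ratios in 5 cell classes, 314 stayed within the counting interval of the reported value, and 48 had the other sign. Of those 48, 23 belonged to ratios whose interval excluded 0 and are given below. Of 200 alternative shares of cells with a UMI (no thinning, or thinning to 1000 UMIs), 102 lay outside the interval of the reported share. The cause of these changes was not tested. The Retnla, Ccl24 and Lpl cluster counted as resident and the single clusters were the alternatives chosen after seeing the data.

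In resident macrophage-like cells the Fn1 log2 ratio became 2.20 at resolution 0.5, 3.0 with the Retnla, Ccl24 and Lpl cluster, 2.91 with classes from the highest marker score, 3.89 with each library clustered alone and 3.19 without the top 3% of doublet scores. Timp2 became -0.12 with 4000 variable genes, -0.034 with that cluster, -0.31 with libraries clustered alone and -0.075 without the doublet scores. Adam8 became -0.012 without the 5 cells with most UMIs and -0.12 under the stricter cell filter (500 genes, 10% mitochondrial UMIs). Mmp9, whose interval held 0, ranged from -1.36 to 1.05, with 3 of 10 keeping its sign.

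In monocyte-like cells Vcan became -0.49 with 4000 variable genes, -1.06 at resolution 0.5 and -1.59 in the Chil3 cluster alone. Mmp12 became 1.20 with the members among the variable genes and 0.85 in the Ly6i cluster, and Mmp9 became -1.99 without the doublet scores. Single clusters gave -0.18 for Fn1 (Chil3) and -0.74 (Chil3) and -1.58 (Ly6i) for Thbs1. In cDC2-like cells Mmp14 became 0.54 and Thbs1 0.38 with 4000 variable genes, and in neutrophil-like cells Fn1 became -0.23 with the marker score. Ratios whose interval held 0 and that took both signs were Fn1 in cDC2-like (-0.36 to 1.52), Mmp9 in cDC2-like (-1.59 to 1.36), Tgfbi in neutrophil-like (-1.25 to 0.50), Timp2 in monocyte-like (-0.95 to 0.46, single clusters included) and Timp2 in neutrophil-like cells (-0.29 to 0.94).

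The count of members at least 2-fold higher in KO in resident macrophage-like cells, 1 as reported, was 2 at resolution 0.5, 4 with the Retnla, Ccl24 and Lpl cluster, 2 with the marker score, 4 with libraries clustered alone and 3 without the doublet scores. That of members lower, 4 as reported, was 2 with 4000 variable genes and 2 with the marker score. In monocyte-like cells the count higher, 1 as reported, was 2 at a 1.5-fold threshold and 2 with the members among the variable genes, and the count lower, 4 as reported, was 2 with 4000 variable genes. The KO to WT ratio of Mmp14 in eosinophil-like cells, with 0 UMIs in KO, has no finite value, and Timp1 and Vcan had too few UMIs in resident macrophage-like cells for a ratio. No paired analysis was possible because each genotype is 1 library.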
